A study of Mus musculus with 12 samples.

Results

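Subcutaneous white adipose tissue (scWAT) of mice that lack Lr11 was compared with scWAT of wild-type (WT) mice on 6 one-colour Agilent arrays, 3 for each genotype, out of 12 arrays in the series. The members were the arrays whose source label named scWAT, and the other 6 arrays were of brown adipose tissue (BAT), 3 for each genotype. The mice were C57Bl6/J males aged 12 weeks, the WT mice were littermates of the Lr11-/- mice, and both genotypes were on a high-fat diet with 60% of calories from fat. The labels gave 4 weeks of the diet as well as a start at weaning, so its length was not settled. Lr11-/- mice lack the gene in every tissue. The labels did not say whether each array was a separate mouse, and the p values below therefore measure only the spread between arrays. That spread was pooled over all 12 arrays, scWAT and BAT. The standard errors (SE) and p values are therefore not those of the 6 scWAT arrays alone. RNA from whole tissue was measured, so that fewer cells of a type and less RNA per cell cannot be told apart. The question was which genes and functions differed in scWAT between the genotypes, beyond the genes of heat production.

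White fat stores triglyceride in large droplets and releases fatty acids on demand, and the subcutaneous depot can also take on mitochondria and the uncoupling protein *Ucp1*, by which brown fat burns fatty acids as heat. LR11, also known as SorLA and encoded by *Sorl1*, is a membrane receptor of the LDL receptor family that also sorts proteins between the Golgi and endosomes, and its outer part can be released in soluble form. Fat tissue also holds fibroblast-like progenitors, which make collagen, as well as macrophages and vessels, and these cells respond to the expansion of fat on a high-fat diet.

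A value below is a log2 intensity, the log2 of the deposited intensity of a probe minus the 75th percentile of that array, and a spot at that percentile has the value 0. A log2 fold change is the mean of Lr11-/- minus the mean of WT, and 1 gene was read from 1 probe, its brightest. Where values of 3 arrays are given, they are those of replicates 1, 2 and 3 in that order. A gene was called higher or lower where limma gave a Benjamini-Hochberg adjusted p under 0.05 over the 32121 probes tested. Of the 14710 genes tested, 530 were called higher (3.6%) and 357 lower (2.43%). The 3 Lr11-/- arrays lay above the 3 WT arrays for 11.4% of the genes and below them for 9.56%, whether called or not.

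The 6 arrays were not alike within a genotype. Skeletal muscle genes were bright on WT replicate 3 and Lr11-/- replicate 1 and dim on the other 4 arrays. *Acta1*, the skeletal muscle actin, had a log2 intensity of 1.46, 0.81 and 9.62 in WT, against 9.40, −0.41 and −0.33 in Lr11-/-. Over the 14 tested of 25 muscle markers the summed intensity, in multiples of the 75th percentile, was 5.65 to 5739 in WT against 31.5 to 4470 in Lr11-/-. None of the 14 was called, and none had genotypes that did not overlap. These 2 arrays differed from each other by an SD of 0.84 over the tested probes, less than any other pair of arrays of opposite genotype and less than either differed from any array of its own genotype.

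WT replicate 2 stood apart in adipocyte genes. *Adipoq*, which encodes the adipocyte hormone adiponectin, was at 8.55, 3.84 and 6.61 in WT, against 8.03, 7.59 and 7.81 in Lr11-/-. The lipid droplet coat gene *Plin1* was at 6.07, 2.47 and 4.37 in WT and 5.22, 6.58 and 6.87 in Lr11-/-. On this array the median over macrophage markers was the highest of the 6, at 4.29. Keratinocyte genes were brightest on Lr11-/- replicate 1, where *Krt5* was at 0.98 against −3.53 to −2.04 on the other arrays, and none of the 10 epithelial markers tested was called.

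**Figure D1:**
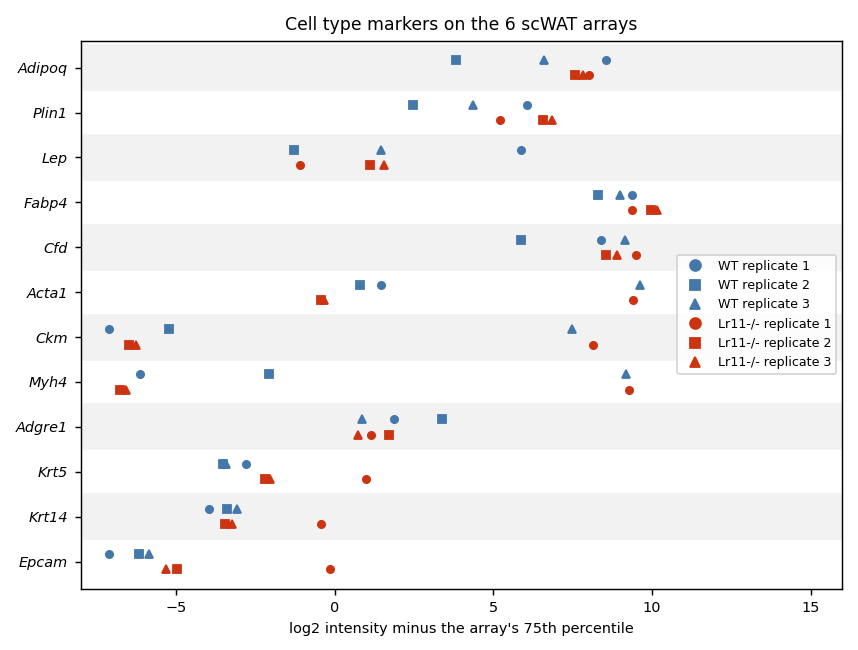
Log2 intensity minus the array's 75th percentile (x axis) of adipocyte (*Adipoq*, *Plin1*, *Lep*, *Fabp4*, *Cfd*), skeletal muscle (*Acta1*, *Ckm*, *Myh4*), macrophage (*Adgre1*) and epithelial (*Krt5*, *Krt14*, *Epcam*) markers, 1 point for each of the 6 scWAT arrays. *Acta1*, *Ckm* and *Myh4* are bright on WT replicate 3 and Lr11-/- replicate 1 alone, and *Adipoq* is lowest on WT replicate 2, at 3.84.

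The other pair that stood apart was Lr11-/- replicates 2 and 3, which differed from each other by an SD of 0.458 and had 0 identical values over the tested probes. They correlated with the 6 BAT arrays at r = 0.96 to 0.981 across probes and with the other 4 scWAT arrays at no more than 0.93. Lr11-/- replicate 1 correlated with BAT at 0.919 to 0.941, and the WT arrays at 0.797 to 0.922. A pair of genes that mark position along the body axis, chosen after their values were seen, separated all scWAT arrays from BAT, and 2 other depot genes did not. *Hoxc9* lay between 1.08 and 3.02 on the 6 scWAT arrays and between −6.87 and −5.79 on the BAT arrays. *Hoxc10* lay between −0.92 and 0.74 in scWAT and between −6.55 and −4.51 in BAT. *Hoxc8* lay between −3.27 and −1.81 in scWAT and between −5.11 and −2.87 in BAT, and *Zic1*, known as a marker of brown fat, between −2.29 and −1.12 and between −1.91 and −1.62. The part that the muscle, adipocyte, macrophage and epithelial markers or the likeness to BAT had in the results below was not tested. For many of the gene groups, values without both muscle arrays or within the 2 array series are also given. The fit without both muscle arrays was chosen after seeing the data. Of all 14710 genes it called 2659 higher and 1833 lower, against 530 and 357 with all arrays. Its counts for single lists below are to be read beside these. The first series held replicate 1 of each genotype on one slide, and the second held replicates 2 and 3 on another, so that slide and series are the same split in scWAT.

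*Sorl1*, the deleted gene, had log2 intensities of 0.91, 0.96 and 1.15 in WT, against −3.57, −3.56 and −2.87 in Lr11-/-. The genotypes did not overlap, and *Sorl1* fell by 4.34 on the log2 scale (SE 0.42, adjusted p = 0.0063 from limma). Of the genes named by the rule of this report, *Sorl1* alone passed the threshold with each of the 6 scWAT arrays left out in turn. *Nxpe4* and *Abcg4*, which lie on the same chromosome as *Sorl1*, were also among the genes with the smallest p. *Nxpe4* was at 0.04, −1.22 and −1.30 in WT and −4.38, −5.74 and −6.32 in Lr11-/-, and its log2 fold change was −4.65 in scWAT (adjusted p = 0.010) and −5.37 in BAT (adjusted p = 0.027).

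Among called genes whose genotypes did not overlap, the largest rises included genes of heat production, fatty acid handling and the mitochondrion. *Ucp1* was at −4.63, −4.52 and 2.92 in WT and 4.39, 9.75 and 10.05 in Lr11-/-. *Ucp1* rose by 10.14 on the log2 scale (SE 1.92, adjusted p = 0.033), with the WT array of high muscle signal the highest of the WT arrays. *Cidea*, a lipid droplet protein of brown adipocytes, was at 1.28, −5.31 and 4.34 in WT and 6.31, 10.04 and 10.06 in Lr11-/-. On Lr11-/- replicates 2 and 3 both genes were close to the mean of WT BAT, 9.76 for *Ucp1* and 9.77 for *Cidea*, and on replicate 1 both were below it.

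Next came genes that take up, activate or oxidise fatty acids. *Acsm3*, a mitochondrial medium-chain acyl-CoA synthetase, was at −5.05, −6.71 and 0.04 in WT and 3.40, 4.35 and 4.81 in Lr11-/- (log2 fold change 8.09, SE 1.30, adjusted p = 0.021). *Slc27a2*, a fatty acid transport protein with acyl-CoA synthetase activity, was at −4.09, −5.75 and −1.15 in WT and 1.29, 4.11 and 4.51 in Lr11-/- (log2 fold change 6.97, SE 1.11, adjusted p = 0.021). Both were chosen among genes without overlap of the genotypes, and the 2 genes kept differences of 8.44 and 5.38 within the first array series. *Acox2*, a peroxisomal oxidase of branched-chain acyl-CoA, was at −6.17, −5.90 and −4.34 in WT and −3.11, 1.37 and 1.29 in Lr11-/- (log2 fold change 5.32, SE 1.03, adjusted p = 0.034). *Mfsd2a*, a transporter of lysophosphatidylcholine, was at −4.22, −6.34 and −1.89 in WT and 0.70, 3.15 and 0.77 in Lr11-/- (log2 fold change 5.69, SE 1.12, adjusted p = 0.035).

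Other large rises lay outside fatty acid oxidation. *Slc2a5*, the fructose transporter GLUT5, was not well above background on any WT array and was at −3.88, 2.51 and 2.69 in Lr11-/-, at least 38.6-fold higher (adjusted p = 0.046). *Cpn2*, a subunit of the blood enzyme carboxypeptidase N, was likewise not well above background in WT and was at −4.07, 1.30 and 1.20 in Lr11-/-, at least 19.8-fold higher (adjusted p = 0.040). For these bounds a dim array was given the dimmest signal that the scanner still called well above background there, before group means were taken. In both genes Lr11-/- replicate 1 was far below replicates 2 and 3. *Aspg*, an asparaginase, was at −2.46, −1.82 and 0.67 in WT and 2.61, 4.49 and 4.13 in Lr11-/- (log2 fold change 4.94, SE 0.75, adjusted p = 0.016).

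**Figure D2:**
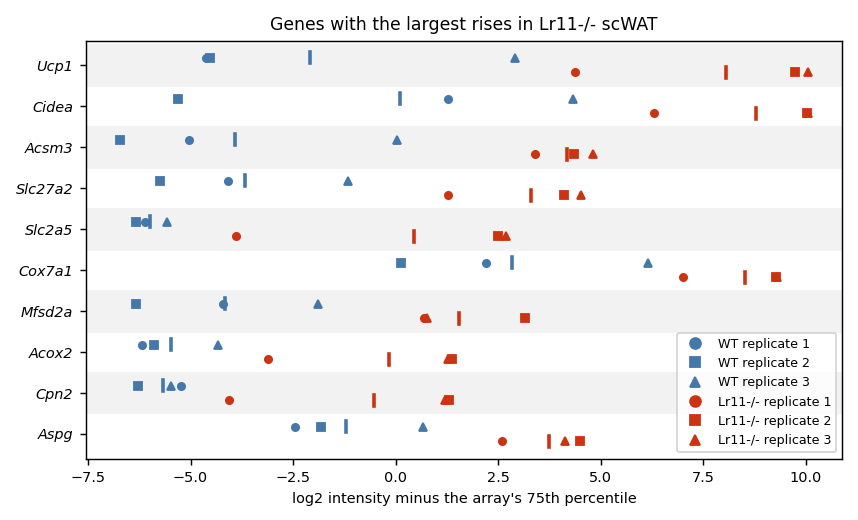
Log2 intensity minus the array's 75th percentile (x axis) of 10 genes, 1 point for each scWAT array. A vertical bar gives the mean of each genotype. The genes are those with the largest rises among called genes whose genotypes did not overlap. By that choice each Lr11-/- array lies to the right of every WT array. In all 10 genes Lr11-/- replicate 1 lies between WT and the other Lr11-/- arrays, far from the latter in *Slc2a5*, *Acox2* and *Cpn2*.

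The genes that rose with the smallest p followed, a choice that by itself favours a small spread within each genotype. *Shmt1*, the cytosolic enzyme that passes one-carbon units from serine to folate, was at −3.28, −4.45 and −3.61 in WT and −1.29, −0.32 and −0.21 in Lr11-/- (log2 fold change 3.17, SE 0.35, adjusted p = 0.0092). *Sfxn1*, which carries serine into mitochondria, was at 3.27, 2.70 and 3.23 in WT and 4.60, 4.70 and 4.72 in Lr11-/- (log2 fold change 1.61, SE 0.22, adjusted p = 0.012). *Sephs2*, which makes the selenium donor for selenoproteins, was at −1.83, −2.71 and −2.11 in WT and −0.55, 0.08 and 0.30 in Lr11-/- (log2 fold change 2.16, adjusted p = 0.012). Serine and selenium metabolism were not among the lists used here, and no theme is drawn from these genes.

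*Pex6*, an ATPase that recycles the receptor for peroxisomal import, was at 1.19, 0.81 and 1.61 in WT and 2.96, 3.85 and 3.67 in Lr11-/- (log2 fold change 2.29, SE 0.29, adjusted p = 0.012). *H2-Q10*, a secreted class I histocompatibility protein, was at 1.01, 1.66 and 0.77 in WT and 3.80, 3.61 and 3.25 in Lr11-/- (log2 fold change 2.40, adjusted p = 0.012). It belongs to a family of near-identical genes, so that its probe may also read relatives. *Rgs7*, a regulator of G protein signalling, had a log2 fold change of 3.84 (adjusted p = 0.012), and the membrane protein gene *Tmem184a*, dim on every WT array, was at least 6.92-fold higher (adjusted p = 0.0090). *Vmn1r216*, annotated as a vomeronasal receptor of a large family, was at −3.53, −4.07 and −4.79 in WT and −0.55, −0.67 and −0.46 in Lr11-/- (log2 fold change 3.57, adjusted p = 0.0063). The other 2 genes of this group, *Mmd2* and *Rasef*, were not well above background on any WT array and were at least 2.25-fold and at least 3.90-fold higher.

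Genes of the mitochondrial respiratory chain were higher as groups. Complex I, which takes electrons from NADH, had 15 of 37 tested subunit genes called higher and 0 lower, and for 22 of 37 the genotypes did not overlap. The median log2 fold change of the 37 was 1.84, beside 0.05 over all genes tested. On the single arrays the median level of complex I was 5.65, 4.26 and 6.22 in WT, against 6.26, 7.53 and 7.53 in Lr11-/-. Lr11-/- replicate 1 thus lay level with WT replicate 3, the other array with muscle signal, and replicates 2 and 3 lay in the range of the BAT arrays, 7.45 to 7.67. Skeletal muscle is itself rich in these genes. Without both muscle arrays 37 of 37 were called higher, with a median of 2.67, beside 2659 of all 14710 genes tested.

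Subunits with the smallest p showed the size of the differences. *Ndufa1* was at 5.79, 5.08 and 6.10 in WT and 6.66, 7.86 and 8.02 in Lr11-/- (log2 fold change 1.85, SE 0.36, adjusted p = 0.035). The large catalytic subunit *Ndufs1* was at 4.44, 3.31 and 5.28 in WT and 5.69, 7.19 and 7.40 in Lr11-/- (log2 fold change 2.42, SE 0.51, adjusted p = 0.039). *Ndufc1* and *Ndufa10* had log2 fold changes of 2.11 and 2.71, both called. Complexes II and III had 10 of 14 subunit genes called higher, with a median of 2.02. Among them the core subunit *Uqcrc1* was at 3.86, 2.33 and 4.50 in WT and 5.03, 6.90 and 7.04 in Lr11-/- (adjusted p = 0.039). Cytochrome c oxidase, which passes electrons to oxygen, had 8 of 16 called higher, with a median of 1.74.

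Within cytochrome c oxidase the rise was uneven. The largest log2 fold change of the 16 genes was 6.17, of a gene that was not both called and without overlap of the genotypes. *Cox7a1*, the isoform of muscle and brown fat, was at 2.21, 0.12 and 6.16 in WT and 7.01, 9.28 and 9.30 in Lr11-/- (log2 fold change 5.70, SE 1.20, adjusted p = 0.038). *Cox7b*, a subunit of all tissues, was at 5.73, 5.32 and 6.57 in WT and 6.83, 8.01 and 8.12 in Lr11-/- (log2 fold change 1.79, SE 0.38, adjusted p = 0.039). *Cox6b2* and *Cox6b1* had log2 fold changes of 1.49 and 2.15, both called. ATP synthase had 5 of 15 tested genes called higher, with a median of 1.49, led by *Atp5e* (1.53), *Atp5c1* (1.47), *Atp5d* (2.01) and *Atp5j2* (1.95), each at an adjusted p of 0.037 to 0.041. No gene of the respiratory chain or of ATP synthase was called lower. Of the 15 ATP synthase genes 1 had a lower mean in Lr11-/-, with a log2 fold change of −1.53.

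The TCA cycle with pyruvate dehydrogenase had 9 of 19 genes called higher and 0 lower, with a median of 2.41. *Suclg1*, a subunit of succinyl-CoA ligase, was at 4.39, 2.43 and 4.78 in WT and 5.40, 7.96 and 8.15 in Lr11-/- (log2 fold change 3.31, SE 0.72, adjusted p = 0.040). Its partner *Suclg2* was at 0.55, −0.84 and 0.78 in WT and 1.59, 2.34 and 2.51 in Lr11-/- (log2 fold change 1.98, SE 0.39, adjusted p = 0.036). *Dlst*, of the 2-oxoglutarate dehydrogenase complex, and *Idh3g*, of the NAD-dependent isocitrate dehydrogenase, rose by 2.41 and 2.71. Without both muscle arrays 18 of the 19 were called higher.

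Mitochondrial fatty acid oxidation moved by more than any other group. Here 14 of 20 genes were called higher and 0 lower, and the median of 2.83 was the highest of the 39 gene lists examined. *Hadha* and *Hadhb*, the alpha and beta subunits of the trifunctional protein for long chains, rose together. *Hadha* was at 1.72, 0.24 and 1.76 in WT and 2.65, 5.15 and 5.24 in Lr11-/- (log2 fold change 3.10, SE 0.63, adjusted p = 0.037). *Hadhb* was at 5.62, 3.64 and 5.72 in WT and 6.54, 9.17 and 9.38 in Lr11-/- (log2 fold change 3.37, SE 0.72, adjusted p = 0.039). *Acadvl*, the very long chain acyl-CoA dehydrogenase, rose by 3.14, and *Acot2*, a mitochondrial acyl-CoA thioesterase, by 3.75. Both forms of the entry enzyme carnitine palmitoyltransferase, named here after their values were seen, did not pass: *Cpt1b* was at −1.40, −2.90 and 3.93 in WT and 3.14, 5.80 and 5.75 in Lr11-/- (adjusted p = 0.060), and *Cpt1a* had a log2 fold change of −0.80 (adjusted p = 0.19).

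Within the 2 array series these medians differed in size. In the first series the median difference was 0.69 for complex I, 0.53 for the TCA cycle and 0.39 for fatty acid oxidation, beside −0.10 over all genes. In the second series it was 2.34, 3.25 and 4.13, beside 0.11 over all genes.

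The letters GCGCATGCG, to which the nuclear respiratory factor NRF1 is known to bind, were looked for in promoters, here 250 bases before to 50 after a transcription start in a RefSeq table of build GRCm38.p6. Of the 14710 genes tested 11683 had a promoter there. A gene counted once however many promoters or overlapping matches it had, on either strand. The letters stood in the promoters of 3.54% of all these genes, of 5.06% of 435 genes called higher and of 0.383% of 261 genes called lower. For the 89 genes of the respiratory chain, ATP synthase, TCA cycle and fatty acid oxidation lists the share was 10.1%. A match of letters is a description and shows no binding. The 3 called genes of these lists with the smallest p that hold the letters before the start are shown to place them, each with the bases around them. The letters are in capitals, and in *Cox6a1* and *Etfdh* they match on both strands at 1 base apart, so that the capitals there cover both matches.

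Cox6a1, chr5:115349061-115349170, minus strand: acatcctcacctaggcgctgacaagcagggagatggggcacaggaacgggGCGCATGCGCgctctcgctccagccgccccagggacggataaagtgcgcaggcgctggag

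Ogdh, chr11:6292493-6292557, plus strand: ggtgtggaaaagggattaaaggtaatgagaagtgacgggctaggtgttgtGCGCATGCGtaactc

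Etfdh, chr3:79628836-79628945, minus strand: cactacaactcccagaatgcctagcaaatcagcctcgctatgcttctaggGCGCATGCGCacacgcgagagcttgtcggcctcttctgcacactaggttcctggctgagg

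*Cox6a1*, a cytochrome c oxidase subunit, was at 8.62, 7.60 and 7.66 in WT and 8.63, 10.18 and 10.36 in Lr11-/- (log2 fold change 1.76, adjusted p = 0.046). *Ogdh*, of the 2-oxoglutarate dehydrogenase complex, had a log2 fold change of 2.22, and *Etfdh*, which passes electrons from fatty acid oxidation to the chain, one of 2.79. The letters of 3 other factors were also looked for. TCAAGGTCA, of the oestrogen-related receptors, stood in the promoters of 0.351% of all tested genes, 0.23% of those higher and 0 of those lower. TGACGTCA, of CREB, stood in 3.21%, 3.45% and 2.3%, and TCACNCCAC, of SREBP, in 1.36%, 1.61% and 1.53%. For the 89 genes of the lists above, the share was 7.87% (7 genes) for TGACGTCA, beside 10.1% (9 genes) for GCGCATGCG. It was 1.12% (1 gene) for TCAAGGTCA and 0 for TCACNCCAC.

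Genes that build mitochondria moved with them, by less. Of 77 mitochondrial ribosomal protein genes 17 were called higher and 0 lower, with a median of 1.17. *Mrps36* was at 3.09, 2.48 and 3.83 in WT and 4.33, 6.10 and 6.21 in Lr11-/- (log2 fold change 2.41, SE 0.48, adjusted p = 0.035), and *Mrpl38*, *Mrps24* and *Mrps27* rose by 1.81, 1.50 and 1.88. All 77 had a higher mean in Lr11-/-. Of 31 genes of mitochondrial import, chaperones and dynamics 4 were called higher, namely *Timm21* (1.33), *Timm44* (1.65), the chaperonin *Hspd1* (1.97) and *Timm50* (1.66). The median of this list was 1.11, and −0.02 in the first series. Among 26 transcriptional regulators of oxidative and adipocyte genes 3 were called higher. They were *Ebf2*, which marks brown and beige precursors, at 0.53, −0.38 and −0.07 in WT and 1.49, 1.85 and 1.36 in Lr11-/- (log2 fold change 1.55, SE 0.28, adjusted p = 0.030), and the mitochondrial transcription factors *Tfb1m* (1.28) and *Tfb2m* (1.55).

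Breakdown of branched-chain amino acids, which yields acyl-CoA for the TCA cycle, had 9 of 23 genes called higher and 0 lower, and for 18 of 23 the genotypes did not overlap. *Bcat2*, the mitochondrial transaminase that takes the first step, was at 2.10, 0.68 and 1.48 in WT and 3.62, 3.55 and 3.60 in Lr11-/- (log2 fold change 2.17, SE 0.30, adjusted p = 0.013). It was the member with the smallest p and was nearly level on the 3 Lr11-/- arrays. *Bckdha* and *Bckdhb*, the subunits of the dehydrogenase at the committed step, rose by 2.68 and 3.05, and so did its inhibiting kinase *Bckdk*, by 1.77 (adjusted p = 0.035 to 0.040). *Bcat1*, the cytosolic transaminase, had a log2 fold change of −0.34 (adjusted p = 0.80) and was looked at after its value was seen. The median of the 23 was 2.05, and 0.42 and 2.92 within the first and the second series.

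Of 31 genes of peroxisome biogenesis and oxidation 7 were called higher, *Pex6* and *Acox2* among them, with a median of 1.46. *Acot4*, a peroxisomal thioesterase of succinyl-CoA and other acyl-CoA, was at −1.60, −2.54 and −1.65 in WT and 0.11, 0.80 and 1.31 in Lr11-/- (log2 fold change 2.67, SE 0.51, adjusted p = 0.033). *Pex11a*, which divides peroxisomes, rose by 1.91. The median difference of the list was −0.22 in the first series and 2.55 in the second.

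Lipid synthesis and storage genes gave fewer calls and depended more on the series. De novo lipogenesis had 2 of 16 genes called higher, with a median of 2.05, but −0.89 in the first series and 3.70 in the second. *Acaca*, the acetyl-CoA carboxylase that makes malonyl-CoA for fatty acid synthesis, was at 4.25, 2.15 and 3.32 in WT and 5.63, 7.69 and 7.64 in Lr11-/- (log2 fold change 3.75, SE 0.63, adjusted p = 0.026). *Elovl6*, which extends palmitate to stearate, was at 0.23, 0.16 and 0.07 in WT and 1.66, 6.13 and 6.02 in Lr11-/- (log2 fold change 4.46, SE 0.94, adjusted p = 0.039). *Fasn*, the fatty acid synthase, did not pass, and its genotypes overlapped: it was at 2.85, −3.44 and −0.74 in WT and 2.03, 5.47 and 5.35 in Lr11-/- (adjusted p = 0.065). *Acacb* had a log2 fold change of 3.41 (adjusted p = 0.070).

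Triglyceride synthesis and glycerol handling had 1 of 17 genes called higher, and its median of 1.87 was −0.07 in the first series and 2.70 in the second. This was *Pck1*, the enzyme of glyceroneogenesis, at 4.87, 2.23 and 6.03 in WT and 8.03, 7.97 and 8.46 in Lr11-/- (log2 fold change 3.77, SE 0.72, adjusted p = 0.033). It was among the few genes of lipid handling with all 3 Lr11-/- arrays at one level. Of the lipid droplet and lipolysis genes 0 of 16 were called, against 6 called higher and 1 lower without both muscle arrays. The median of this list was 1.82, but −0.56 in the first series and 3.07 in the second. *Ces1d*, *Abhd5*, *Pnpla2* and *Plin5* had log2 fold changes of 3.64, 1.39, 2.10 and 3.68 at adjusted p of 0.055 to 0.080. Among 18 genes of fatty acid uptake and activation 3 were called higher, *Slc27a2*, *Acsm3* and *Mfsd2a*, all described above. The median of the 18 was 1.05, with −0.08 in the first series and 1.65 in the second. Cholesterol synthesis had 1 of 23 called, the squalene synthase *Fdft1*, which rose by 1.94, and a list median of 0.03 that was −1.90 in the first series and 1.25 in the second. It was −0.63 without WT replicate 3, 0.71 without WT replicate 1, −0.14 after quantile normalization and −0.22 without scaling.

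Of 28 genes of glucose uptake, glycolysis and glycogen 3 were called higher, *Slc2a5*, *Pgk1* and *Pygl*, and the median was 1.61, with 0.98 in the first series and 1.65 in the second. *Pgk1*, a glycolytic kinase, was at 4.75, 5.63 and 6.44 in WT and 6.79, 7.24 and 7.41 in Lr11-/- (log2 fold change 1.54, SE 0.36, adjusted p = 0.044). *Pygl*, the liver form of glycogen phosphorylase, was at 4.58, 3.96 and 3.42 in WT and 4.83, 7.86 and 8.04 in Lr11-/- (log2 fold change 2.92, SE 0.72, adjusted p = 0.047). In adrenergic and cAMP signalling 2 of 25 were called higher. The adenylyl cyclase *Adcy3* was at −2.12, −1.23 and −2.91 in WT and −0.67, 0.48 and 0.49 in Lr11-/- (log2 fold change 2.19, SE 0.43, adjusted p = 0.036). The beta-1 adrenoceptor *Adrb1* was at −2.44, −4.07 and −3.93 in WT and −2.44, 0.54 and 0.34 in Lr11-/- (log2 fold change 2.96, adjusted p = 0.046), with 1 array of each genotype at the same level. *Adra2a*, the alpha-2A adrenoceptor, which opposes cAMP, had a log2 fold change of −4.22 (adjusted p = 0.059). Of the insulin and IGF signalling genes 0 of 26 were called.

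**Figure D3:**
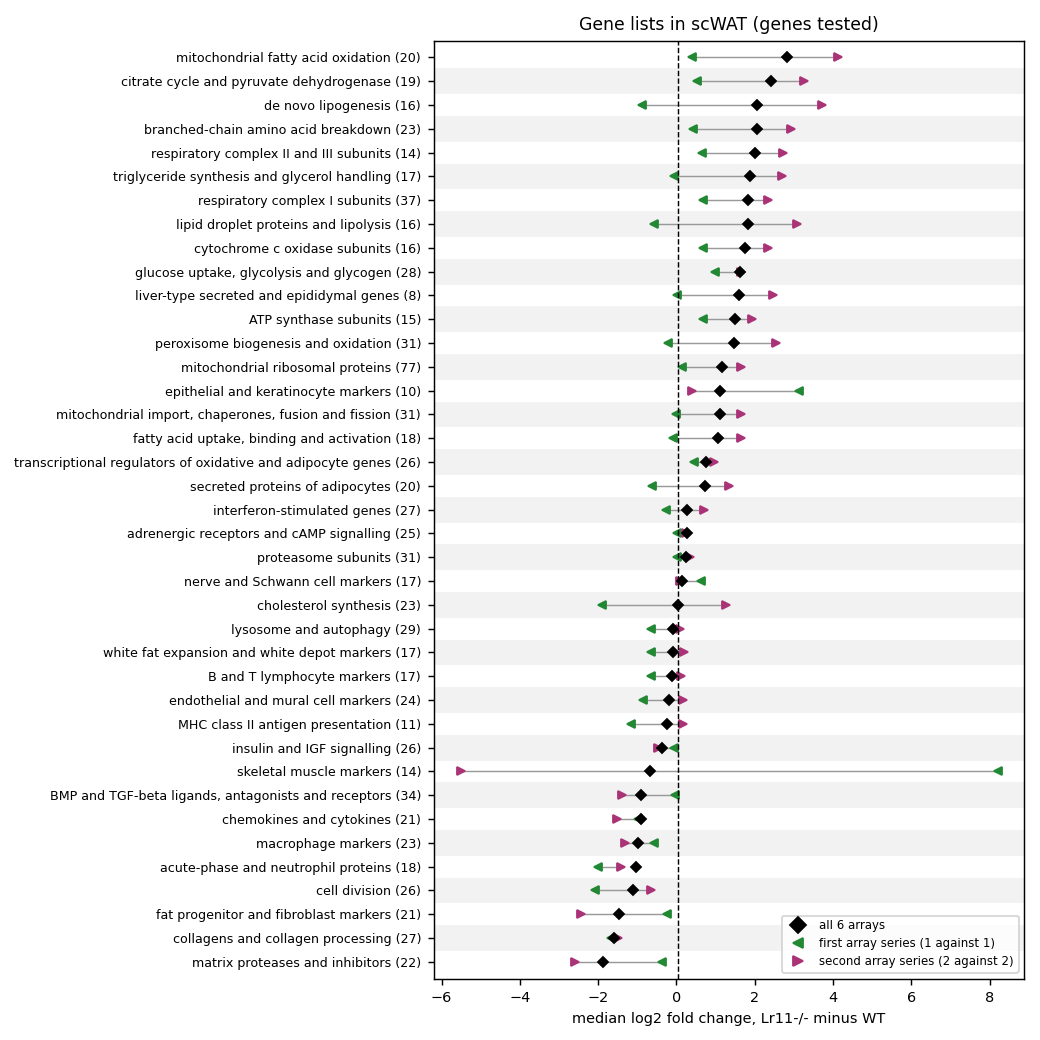
Median log2 fold change of each gene list in scWAT, Lr11-/- minus WT (x axis), over all 6 arrays (diamonds), within the first array series of 1 array a genotype and within the second of 2 (triangles), with the number of genes tested in brackets and the median of all genes as a dashed line. Mitochondrial and lipid lists lie to the right, collagen, progenitor and protease lists to the left, and skeletal muscle runs from 8.20 in the first series to −5.51 in the second.

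Among called genes whose genotypes did not overlap, the largest falls included genes of inflammation and extracellular matrix. *Saa3*, an acute-phase protein made in inflamed fat, was at 3.75, 8.29 and 2.05 in WT and −2.85, −0.83 and −3.64 in Lr11-/- (log2 fold change −7.14, SE 1.38, adjusted p = 0.034). *S100a8*, a calcium-binding protein of neutrophils and monocytes, was at 3.67, 5.89 and 1.35 in WT and 0.21, −1.46 and −2.41 in Lr11-/- (log2 fold change −4.86, adjusted p = 0.038). In both genes WT replicate 2, the array with the brightest macrophage markers, was the highest, and WT replicate 3 was still above every Lr11-/- array. *Slpi*, an inhibitor of neutrophil elastase, was at −0.53, 6.16 and 5.59 in WT and −0.68, −2.23 and −3.30 in Lr11-/- (log2 fold change −5.81, adjusted p = 0.048). For *Slpi* the difference came from the second series, −8.64, and was −0.15 in the first.

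*Ccn4*, a matrix protein induced by Wnt signals, was at −3.07, 3.45 and −1.24 in WT and was not well above background on any Lr11-/- array, at least 22.2-fold lower (adjusted p = 0.045). *Col8a2*, a short-chain collagen, was at −4.36, 0.65 and 1.11 in WT and −4.53, −6.89 and −5.82 in Lr11-/-, a log2 fold change of −4.88 (adjusted p = 0.046) that was −0.17 in the first series. The long noncoding RNA *Mirt2* was at −0.93, 1.75 and −3.54 in WT and dim in Lr11-/-, at least 13.9-fold lower. *Ct55* and *Pramel13*, genes known from testis and germ cells, were dim on every Lr11-/- array and at least 5.86-fold and at least 9.70-fold lower. Both were above background on all 3 WT arrays.

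**Figure D4:**
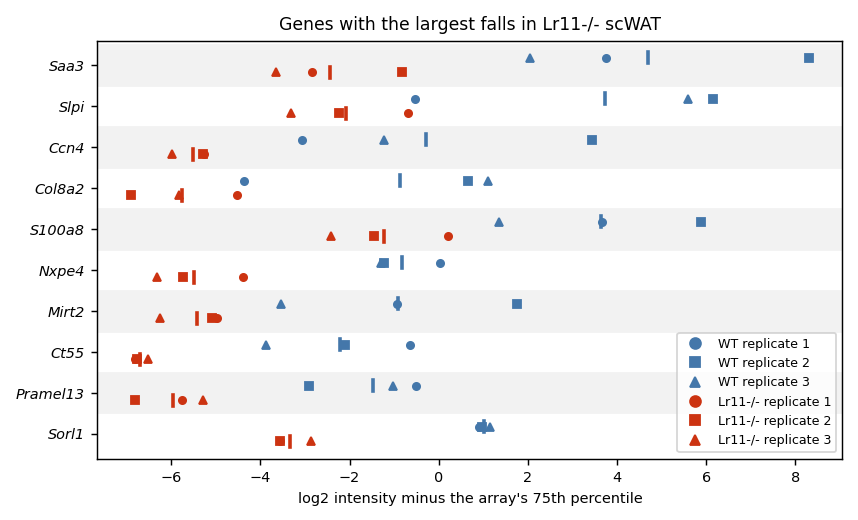
Log2 intensity minus the array's 75th percentile (x axis) of 10 genes, *Sorl1* among them, 1 point for each scWAT array. A vertical bar gives the mean of each genotype. The genes are those with the largest falls among called genes whose genotypes did not overlap. WT values spread widely for *Saa3*, *Slpi*, *Ccn4* and *Col8a2* and closely for *Sorl1*, where they run from 0.91 to 1.15.

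The genes that fell with the smallest p followed. *Avpr1a*, the V1a vasopressin receptor, was at −1.57, 0.09 and −1.11 in WT and −4.14, −4.13 and −4.05 in Lr11-/- (log2 fold change −3.24, SE 0.38, adjusted p = 0.011). *Gnal*, a stimulatory G protein alpha subunit of the olfactory type, was at 1.16, 0.54 and −0.53 in WT and −2.68, −4.18 and −3.67 in Lr11-/- (log2 fold change −3.90, SE 0.46, adjusted p = 0.011). *Gcnt2*, an enzyme that branches carbohydrate chains, was at 1.44, 1.60 and 1.36 in WT and −0.17, −0.06 and −0.13 in Lr11-/- (log2 fold change −1.59, SE 0.19, adjusted p = 0.011).

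*Serpina3m*, a serine protease inhibitor of a cluster of close relatives, was at 0.22, −0.21 and −0.99 in WT and −2.86, −4.42 and −3.84 in Lr11-/- (log2 fold change −3.38, adjusted p = 0.012). *Adap2*, an Arf GTPase-activating protein, was at 2.14, 2.02 and 2.22 in WT and −0.01, 0.12 and 0.04 in Lr11-/- (log2 fold change −2.08, adjusted p = 0.012). Its arrays lay close together within each genotype. *Abcg4*, a sterol transporter, *Tmem255a*, a membrane protein, and *Kntc1*, a kinetochore protein, fell by 2.32, 2.50 and 1.88. The differences of *Avpr1a*, *Gnal*, *Gcnt2* and *Adap2* in BAT were 0.42, 0.24, 0.38 and 0.10, and none of them was called there. The test of the difference between the tissues called 0 of 32121 probes (3537 at an unadjusted p under 0.05, smallest adjusted p 0.17), so for no gene was the scWAT difference shown to differ from that in BAT.

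Collagens and their processing enzymes were lower. Of 27 genes 3 were called lower and 0 higher, the genotypes did not overlap for 13, and the median log2 fold change was −1.59, with −1.67 in the first series and −1.49 in the second. *Col16a1*, a collagen that sits on the surface of other fibrils, was at 3.97, 5.83 and 3.89 in WT and 1.95, 0.59 and 0.66 in Lr11-/- (log2 fold change −3.49, SE 0.51, adjusted p = 0.015). *Lox*, the lysyl oxidase that cross-links collagen, was at 1.67, 2.07 and 0.97 in WT and −0.85, −0.87 and −0.18 in Lr11-/- (log2 fold change −2.20, SE 0.33, adjusted p = 0.016). *Col6a1*, a chain of the pericellular collagen VI, was at 6.29, 6.64 and 5.23 in WT and 4.29, 3.88 and 3.98 in Lr11-/- (log2 fold change −2.00, SE 0.32, adjusted p = 0.022). Its difference was the same within each series, −2.00. *Col1a1*, the main fibril collagen, was at 6.58, 8.39 and 5.43 in WT and 4.81, 4.10 and 4.19 in Lr11-/-, with no overlap and an adjusted p of 0.052. Without both muscle arrays 19 of the 27 were called lower, with a median of −2.50, beside 1833 of all 14710 genes tested.

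Proteases of the matrix and their inhibitors had 4 of 22 genes called lower and 0 higher, with a median of −1.87, which was −0.36 in the first series and −2.58 in the second, and 16 were called lower and 1 higher without both muscle arrays. *Adamts2*, which trims procollagen, was at 5.06, 6.01 and 4.71 in WT and 3.73, 2.25 and 2.53 in Lr11-/- (log2 fold change −2.42, SE 0.43, adjusted p = 0.029). The plasminogen activators *Plau* and *Plat*, of urokinase and tissue type, fell by 2.26 and 1.85, and the metalloproteinase *Mmp23* by 1.89. Among 20 genes of adipocyte secreted proteins *Nampt*, which makes the NAD precursor, was called higher (log2 fold change 1.91), and *Vegfb* and *Nrg4* had log2 fold changes of 1.82 and 3.20 at adjusted p of 0.054 and 0.058.

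Markers of fat progenitors and fibroblasts were also lower, but in the first series by less than the collagens. Of 21 genes 4 were called lower and 0 higher, with a median of −1.48, which was −0.24 in the first series and −2.44 in the second. *Lum*, a proteoglycan of collagen fibrils, was at 4.88, 5.71 and 5.46 in WT and 3.89, 2.68 and 2.72 in Lr11-/- (log2 fold change −2.25, SE 0.36, adjusted p = 0.021). *Cd34*, a surface marker of progenitors and endothelium, fell by 1.30, the Wnt-related matrix protein *Ccn5* by 4.04, and the proteoglycan *Dcn* by 1.64. The summed intensity of the list, in multiples of the 75th percentile, was 382 to 1043 in WT against 124.3 to 321.6 in Lr11-/-. These sums did not overlap, but bright genes such as *Dcn* weigh most in them. The median level of the list did overlap, at 2.14, 4.79 and 2.60 in WT and 2.46, 0.87 and 0.93 in Lr11-/-. *Pdgfra*, which defines these cells, was at 1.30, 3.04 and 2.10 in WT and 1.95, −0.19 and 0.39 in Lr11-/-, and did not pass (adjusted p = 0.11). *Dpp4*, another marker of these cells, was at −1.33, −0.29 and 0.57 in WT and 0.02, −2.93 and −1.67 in Lr11-/- (adjusted p = 0.28). Within the first series *Pdgfra* and *Dpp4* were higher in Lr11-/-, by 0.65 and 1.35. Whether fewer such cells or lower levels in each were measured cannot be told apart.

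BMP and TGF-beta ligands, antagonists and receptors had 32 of 34 means lower in Lr11-/-, but 1 gene was called, and the median was −0.90, with −0.05 in the first series. This gene was *Fstl3*, an antagonist of activins and myostatin, at 1.37, 1.06 and 1.49 in WT and −1.17, −0.10 and −0.15 in Lr11-/- (log2 fold change −1.78, SE 0.33, adjusted p = 0.030). *Fstl1*, *Bmp1* and *Tgfb2* had log2 fold changes of −1.89, −1.95 and −2.79 at adjusted p of 0.061 to 0.094. In the list of white fat expansion and depot genes the Wnt antagonist *Sfrp1* was the 1 of 17 called. It was at −2.21, 0.69 and −1.84 in WT and −3.51, −4.38 and −4.43 in Lr11-/- (log2 fold change −2.99, SE 0.70, adjusted p = 0.044). *Mest*, a gene that rises as fat expands, was at 7.04, 1.74 and 3.33 in WT and 1.15, −0.25 and 0.12 in Lr11-/- (adjusted p = 0.065).

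Acute-phase and neutrophil proteins had 4 of 18 genes called lower and 1 higher. Beside *Saa3* and *S100a8*, *Lbp*, which carries bacterial lipopolysaccharide, was at 5.28, 3.07 and 1.83 in WT and 0.37, −0.32 and −0.06 in Lr11-/- (log2 fold change −3.40, SE 0.73, adjusted p = 0.040), and the protease inhibitor *Serpina3n* fell by 3.52. *Orm3*, an orosomucoid, went the other way, from −2.93, −3.23 and −2.74 in WT to −2.03, 1.36 and 1.24 in Lr11-/- (log2 fold change 3.15, adjusted p = 0.042). The list median was −1.05, and 0.04 with the filter on all 12 arrays. Macrophage markers had a lower mean in Lr11-/- for 23 of 23 genes, but 0 were called, and the median of −0.98 was −0.45 without WT replicate 2. *Trem2*, a receptor of lipid-associated macrophages, was at 1.27, 6.09 and 0.60 in WT and −0.85, 0.09 and −0.87 in Lr11-/- (adjusted p = 0.11), and *Gpnmb*, *Itgax* and *Atp6v0d2* likewise had their highest value on WT replicate 2. The summed intensity of the macrophage list was 168.2 to 1147 in WT against 135.4 to 165.1 in Lr11-/-.

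Cell division genes had 2 of 26 called lower. *Bub1b*, of the spindle checkpoint, was at −1.99, −1.86 and −2.36 in WT and −4.65, −3.84 and −4.43 in Lr11-/- (log2 fold change −2.24, SE 0.30, adjusted p = 0.012), and *Rrm2*, which makes deoxynucleotides, fell by 1.73 (adjusted p = 0.043). The median was −1.11, with −2.09 in the first series and −0.65 in the second, and without both muscle arrays 20 were called lower and 1 higher. Lymphocyte markers gave 1 call of 17, the IgM receptor *Fcmr*, dim on every Lr11-/- array, while the T cell gene *Cd3e* had a log2 fold change of 0.27 (adjusted p = 0.54). Of the lysosome genes *Ctsk*, a collagen-degrading cathepsin of osteoclasts and fibroblasts, was 1 of 29 called, falling by 3.26 (adjusted p = 0.049). Chemokines and cytokines (21 genes), MHC class II (11), interferon-stimulated genes (27), the proteasome (31) and endothelial and mural genes (24) gave 0 calls. Nerve and Schwann cell genes gave 1 of 17, the neurotrophin receptor *Ntrk3*, which rose by 4.86 (adjusted p = 0.039). Of 8 liver-type secreted and epididymal genes *Cpn2* and *Apoc3* were called higher, the latter an apolipoprotein of triglyceride-rich particles that rose by 4.70 (adjusted p = 0.030). *Alb* was at −4.84 to −1.44 in WT and −2.03 to −1.44 in Lr11-/- and did not pass (adjusted p = 0.33).

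The calls depended on single arrays. In all 1692 probes were called (5.27%), 1091 higher and 601 lower, and 8865 had an unadjusted p under 0.05. Only 9 had an adjusted p under 0.01. Without scaling between arrays 838 were called, 303 higher and 535 lower, when the median of all genes shifted to −0.20. Without Lr11-/- replicate 1 the count was 6371, without Lr11-/- replicate 2 it was 28, and without Lr11-/- replicate 3 it was 3. Without WT replicates 1, 2 and 3 it was 4409, 222 and 4617. In complex I and in fatty acid oxidation 0 genes were called without WT replicate 2, without Lr11-/- replicate 2, without Lr11-/- replicate 3 or without any one BAT array. Their medians in these fits were 1.38 to 1.84 and 2.17 to 2.83. For collagens 0 were called without Lr11-/- replicate 2 or 3, and 3 without WT replicate 2 or any one BAT array, with medians of −1.59 to −1.03 over these fits. A fit to the 6 scWAT arrays alone called 0, with 4658 at an unadjusted p under 0.05. Without both muscle arrays 8422 probes were called, and 1667 of the 1692 were among them. The medians of the respiratory chain, ATP synthase, TCA cycle, fatty acid oxidation, branched-chain amino acid, mitochondrial ribosome, collagen, progenitor, protease, macrophage and cell division lists had the same sign in all 27 alternatives, several of which leave a median as it was by their construction.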

How the data were processed

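Cyanine-3-labelled RNA of scWAT and BAT was hybridised to one-colour Agilent mouse arrays, 1 for each sample. The authors deposited the scanner output of Agilent Feature Extraction (10.10.1.1 in the file headers, 10.10 in the submitters' processing notes), whose processed signal is a background-corrected intensity. Here the log2 of the deposited intensity was taken, each array was scaled by subtracting its 75th percentile, outlier and control spots were left out and spots of a probe were averaged. Tested were 32121 of 55681 probes, those that the scanner called well above background on each of the 3 arrays of some group. Of these 19181 had a symbol, through RefSeq accessions, and gave 14710 genes, each read from its brightest tested probe over the 6 scWAT arrays.

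One model with the 4 group means was fitted to all 12 arrays with limma 3.58.1 in R 4.3.3, with Benjamini-Hochberg adjustment over all tested probes. Each SE and p value thus rests on a spread shared by scWAT and BAT arrays. The BAT arrays correlated with each other at r = 0.97 to 0.989 and the scWAT arrays at 0.848 to 0.989. Precision is limited by the small number of arrays. The fit was tested on simulated data in which a probe had the same spread in every group. That test did not cover a spread that differs between scWAT and BAT. Of 3747 genes with several tested probes, 864 had probes of opposite sign and 0 were called in both directions.

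The text names Sorl1, the 10 genes of largest change and the 10 of smallest p in each direction among called genes without overlap of the genotypes, up to 4 members of smallest p in each list, and defining markers of other cell types. Not every gene that met this rule is given in the text. The members and lists were chosen with earlier results of these data known. Coordinates are those of the RefSeq promoter table alone. Alternatives covered scaling, background correction, filters, array series and slide as blocks, array weights, thresholds and leaving out each array.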

Additional observations from a re-analysis of the deposited data

How the results depend on the processing

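The count of probes called in scWAT, 1692, was 1093 with median scaling, 838 without scaling, 151 without a filter, 912 with the slide as a block, 7259 in the second array series alone, 3651 with array weights and 0 when the scWAT arrays were fitted alone (4658 at an unadjusted p under 0.05). At adjusted p thresholds of 0.01 and 0.10 it was 9 and 4890. Leaving out 1 array at a time gave 3 to 6371, and leaving out a BAT array gave 145 to 175. Without both arrays with muscle signal, an alternative chosen after seeing the data, it was 8422. The other 8 alternatives stayed within 1.5 times of the count. For the difference between tissues, 0 probes, the counts were 1 with background correction by normexp on the median signals, 890 in the second series alone, 1092 with array weights, 3029 without both muscle arrays and 0 to 1193 with 1 array left out. The cause of these shifts was not tested.

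Medians of the lists of cholesterol synthesis, MHC class II, acute-phase proteins, adipocyte secreted proteins, expansion, interferon, lymphocyte, lysosome, muscle, nerve and vascular genes changed sign in at least 1 of the 27 alternatives. The other lists kept their sign in these. The first array series was not among the 27. Positive over all 6 arrays but negative in that series were de novo lipogenesis (−0.89), lipid droplet (−0.56) and peroxisome (−0.22) medians. So were those of fatty acid uptake (−0.08), triglyceride synthesis (−0.07) and mitochondrial import (−0.02). No paired analysis was possible because the labels carry no replicate numbers, and the numbers used here only name the arrays of a group in order. The array series, a batch of arrays and not a pairing, gave 1294 probes as a block. The first array series alone, with 1 array a genotype, gave values and no test.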
